A study of Danio rerio with 4 samples.

Results

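The wells described here are those of sorted zebrafish heart cells in which transcripts of hapln1a and mgp made up the largest share of all transcripts. The members were chosen by the summed share of these 2 genes. They are the top 10% of wells by that share, with at least 3 transcripts of the pair, and number 145 of the 1453 wells that held at least 1000 transcripts. A well was loaded with 1 sorted cell, so a member is 1 well.

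The cells came from hearts of adult fish 7 days after cryoinjury, in which a frozen probe kills a patch of the ventricle wall. The fish were prrx1b-/-, with a nonsense mutation in the transcription factor gene prrx1b, or their WT siblings. Both carried the same lineage label, in which Cre driven by the tcf21 promoter was activated in the embryo and switched a ubiquitous reporter to mCherry. The label marks only a portion of the epicardium and the cells derived from it, and a cell stays red whether or not it still expresses tcf21. Each genotype was sorted into 2 plates of 384 wells. Hearts were pooled and neither the labels nor the methods tie a plate to particular fish, so the spread between 2 plates may be technical.

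The epicardium is the cell layer that covers the heart. After injury it becomes active, and cells derived from it enter the wound and lay down matrix. hapln1a encodes a hyaluronan and proteoglycan link protein, which fastens versican-type proteoglycans to hyaluronan and so stabilises a hydrated pericellular matrix. mgp encodes matrix Gla protein, a vitamin K-dependent protein known in mammals as an inhibitor of calcification.

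The pair was not balanced. hapln1a supplied 96.2% of the members' pair transcripts and was present in 145 of 145 members, whereas mgp was present in 49 and absent from 96. In 142 members hapln1a had the larger count, and in 3 members mgp did. The members held 61.0% of all hapln1a transcripts in the 1453 wells and 24.3% of all mgp transcripts. These values chose the wells and are given as a description.

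Among the members, the pair took a median of 73.4 transcripts per 10000, with a lowest value of 41.4 and a highest of 290.4. The members just inside the limit had 41.35, 41.57 and 42.08 per 10000, and the wells just outside had 41.32, 41.08 and 40.71. There was no gap at the limit: 34 members lay within 20% above it and 41 other wells within 20% below it. Of the other wells, 731 held at least 1 transcript of the pair and 577 held none, with a median of 0.705 per 10000. The members are therefore the upper range of a continuous measure and are called hapln1a-rich wells below.

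**Figure D1:**
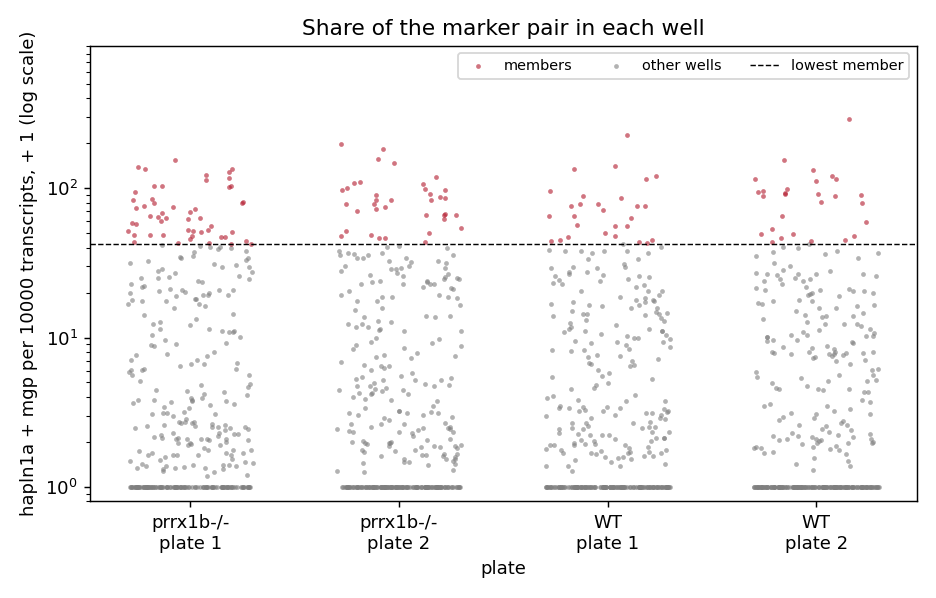
Transcripts of hapln1a and mgp per 10000 transcripts (plus 1, log scale) in each of the 1453 wells, by plate, with members in red and other wells in grey. The dashed line marks the lowest member, at 41.35 per 10000, and wells lie on both sides of it without a gap.

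hapln1a ran at 7315 and 8557 CPM in prrx1b-/- members and at 7515 and 8102 CPM in WT members. In the other wells it was at 322 and 361 CPM on the prrx1b-/- plates and 272 and 244 CPM on the WT plates. CPM here are the transcripts of a gene per 1000000 transcripts, summed over the wells of 1 class on 1 plate. mgp was uneven, at 348 and 153 CPM in prrx1b-/- members and 93.4 and 740.4 CPM in WT members, against 56.5 and 52.1 CPM in other prrx1b-/- wells and 64.7 and 64.3 CPM in other WT wells. The 3 members richest in mgp held 37.1% of the members' mgp transcripts. Only 14 members had 5 or more mgp transcripts, 8 and 1 on the prrx1b-/- plates and 0 and 5 on the WT plates.

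Each gene of the pair could be tested in wells chosen by the other. The pair itself was chosen with earlier results of these data known, so the p-values are no independent support for the pairing. In the top 10% of wells by hapln1a alone, of which 138 are also members, mgp was at 250.0 and 145 CPM on prrx1b-/- plates and 71.1 and 340.3 CPM on WT plates, against 65.1 and 52.3 CPM and 65.7 and 81.7 CPM in the remaining wells of the same plates. This log2 fold change was 1.45 (SE 0.22, adjusted p = 3.22e-07, edgeR quasi-likelihood test over all genes with plate as a block). mgp was thus higher on average, but hardly so on WT plate 1. Conversely, in the 96 wells chosen on mgp alone, hapln1a was at 2711 and 992 CPM on prrx1b-/- plates and 1041 and 2970 CPM on WT plates, against 760.5 and 819 CPM and 573 and 444 CPM in the remaining wells. It was higher by 1.37 on the log2 scale (SE 0.22, adjusted p = 7.72e-05, edgeR), and 22 of these wells were members. Over single wells the 2 genes were weakly related, with a Spearman rho of 0.128 over all wells and -0.022 within the members, given as a description.

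hapln1a-rich wells made up a larger share of prrx1b-/- wells than of WT wells, by a difference that did not pass the test. They were 52 of 366 wells (14.2%, exact 95% binomial interval 10.8 to 18.2%) and 37 of 366 wells (10.1%, 7.22 to 13.7%) on the prrx1b-/- plates. On the WT plates they were 28 of 357 wells (7.84%, 5.27 to 11.1%) and 28 of 364 wells (7.69%, 5.17 to 10.9%). The intervals cover counting error only. The mean was 12.2% ± 2.90 in prrx1b-/- and 7.77% ± 0.107 in WT (SD, n = 2 plates each), a difference of 4.39 percentage points with p = 0.333 in an exact two-sided permutation test, the smallest p that 2 plates against 2 allow. Over all wells of a plate, hapln1a was at 882 and 827 CPM in prrx1b-/- and 592 and 568 CPM in WT (exact permutation p = 0.333). mgp over all wells was at 79.9 and 57.8 CPM in prrx1b-/- and 66.0 and 92.2 CPM in WT, so the genotypes overlapped (exact permutation p = 0.667). In plate sums, more cells rich in a gene and more RNA per cell cannot be told apart.

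Members were shallower than the other wells on every plate. The median number of transcripts was 5806 and 4246 in prrx1b-/- members and 4257 and 3275 in WT members, against 8792 and 7885 in other prrx1b-/- wells and 6483 and 5358 in other WT wells. The mean difference was -2733 transcripts (exact sign-flip p = 0.13, the smallest that 4 plates allow). Ribosomal protein genes took 7.46 to 10.01% of the members' transcripts and 9.95 to 13.7% of the other wells'. Mitochondrial transcripts took 1.58 to 2.09% in members and 2.21 to 2.81% in other wells. The part of depth in the differences below was not tested in the main fit. The comparisons with all other wells and between genotypes were therefore also computed in wells of 2000 to 8000 transcripts and after thinning each well to 1000 transcripts, both chosen after seeing the data. The comparisons with col11a1a and postnb wells were not computed at those depths.

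All genes other than the pair were next compared between members and other wells, plate by plate, with the pair left out of the totals. Of 8494 genes tested, 582 (6.85%) were higher and 872 (10.3%) lower in the members at an adjusted p under 0.05. The count fell to 320 genes of 4761 tested in wells of 2000 to 8000 transcripts and to 306 of 2383 after thinning, of which 291 and 294 were also called in the full comparison. Of the 320 genes 144 were higher and 176 lower, and of the 306 genes 142 were higher and 164 lower. The list counts given below at those depths are to be set beside these. The 25 genes named by a fixed rule of size kept their sign in every alternative that could be computed. In these, 363 values kept the call and 5 lost it. The genes were chosen as called and with 1 sign on all 4 plates, so this follows in part from the choice. MYOC, EHD2 and fpr1 were not tested after thinning, and adm2a and COL11A1 were tested under neither depth setting.

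The higher genes are taken first. cd34, a sialomucin of the cell surface known from blood progenitors and from connective tissue cells of mammals, was at 5460 and 5360 CPM in prrx1b-/- members and 4276 and 3374 CPM in WT members. In the other wells it was at 974 and 909 CPM in prrx1b-/- and 876 and 715 CPM in WT. It was present in 145 of 145 members and in 79.9% of the other wells, with a log2 fold change of 2.28 (SE 0.09, adjusted p = 6.27e-81, edgeR). The groups were far apart on all 4 plates, and the values were 1.53 and 1.95 in wells of 2000 to 8000 transcripts and after thinning.

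fgl2b, a fibrinogen-like gene whose mammalian counterpart acts in coagulation and immune regulation, was at 507 and 411 CPM in prrx1b-/- members and 761 and 624 CPM in WT members. It was at 51.9 and 56.7 CPM in other prrx1b-/- wells and 98.0 and 48.0 CPM in other WT wells. It was found in 105 members (72.4%) and in 19.3% of the other wells, with a log2 fold change of 3.07 (SE 0.16, adjusted p = 2.45e-55, edgeR). It was still called in wells of 2000 to 8000 transcripts, at 1.58. SOSTDC1, a secreted antagonist of BMP and Wnt signals, was at 110.1 and 118 CPM in prrx1b-/- members and 298 and 112 CPM in WT members, against 19.6 and 19.3 CPM and 35.9 and 16.7 CPM in the other wells of the same plates, a log2 fold change of 2.62. EHD2, which encodes a protein of caveolae, had a log2 fold change of 3.26, and tns2b, encoding a tensin of focal adhesions, 2.35. The glutamate receptor subunit gene GRIA1 (2.27), the growth factor gene MDK, or midkine (2.07), and the matrix gene VIT, or vitrin (2.09), were also higher. In wells of 2000 to 8000 transcripts EHD2 was at 2.10, SOSTDC1 at 1.34, tns2b at 1.22 and GRIA1 at 1.11, all still called. GRIA1 lost its call after thinning (1.03, adjusted p = 0.151), MDK lost it under both depth settings and VIT in wells of 2000 to 8000 transcripts.

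Some of the higher genes are best known from immune cells. The formyl peptide receptor gene fpr1 (log2 fold change 2.25), the transcription factor gene IRF8 (2.16) and the invariant chain gene cd74a (2.49) were called. In wells of 2000 to 8000 transcripts fpr1 and IRF8 were at 1.25 and 1.19, both still called. IRF8 was at 193 and 334 CPM in prrx1b-/- members and 196 and 186 CPM in WT members, against 38.1 to 56.1 CPM in the other wells. cd74a was in 26 members only, at 113 and 30.8 CPM in prrx1b-/- members and 565 and 279.6 CPM in WT members. In the other wells it was at 4.32 and 8.59 CPM in prrx1b-/- and 114 and 70.3 CPM in WT, so the ranges overlapped across plates though not within one. The leukocyte marker list summed to 40.7 to 920 CPM in members and 14.98 to 204 CPM in other wells, almost all of it from cd74a and cd74b. The defining leukocyte genes ptprc, CORO1A, LCP1, SPI1, spi1a and csf1rb were at 0 in the members.

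MYOC, or myocilin, a secreted protein of the trabecular meshwork in mammals, had the highest log2 fold change of the named genes, 3.70. It was found in 11 members, and 1 well held 51% of its transcripts there. The value was 2.38 without WT plate 2, 4.39 without prrx1b-/- plate 1 and 4.51 without prrx1b-/- plate 2.

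**Figure D2:**
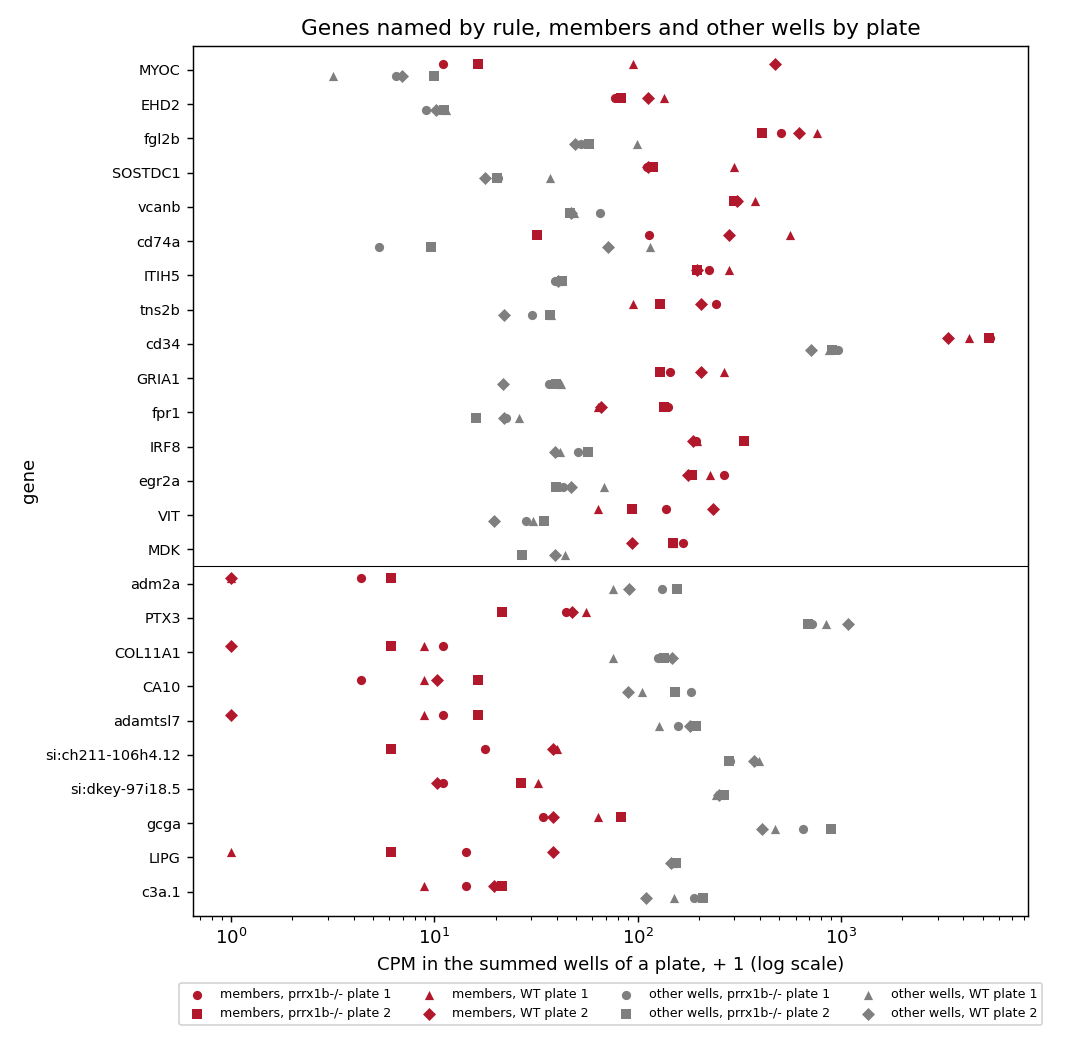
CPM plus 1 (log scale) in the summed wells of each plate for the 15 higher and 10 lower genes chosen by rule, with members in red and other wells in grey. Members and other wells are apart for all genes but cd74a, whose highest other-well plate (114) lies above its lowest member plates (30.8 and 113). The genes were chosen for 1 sign on 4 plates and for size, so this separation follows in part from the choice. Before the choice by size, 233 higher and 384 lower genes met the rule, and 449 of them did not overlap.

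Among the lower genes, PTX3 (pentraxin 3, a secreted pattern recognition protein that also binds hyaluronan matrix) was at 43.4 and 20.5 CPM in prrx1b-/- members and 54.9 and 46.6 CPM in WT members. It was at 723 and 694 CPM in other prrx1b-/- wells and 849.9 and 1081 CPM in other WT wells, a log2 fold change of -4.43 (SE 0.20, adjusted p = 7.34e-72, edgeR). gcga, which encodes preproglucagon, was at 33.4 to 82.2 CPM in members and 409 to 891 CPM in other wells (-3.70). The peptide hormone gene adm2a was at 3.34 and 5.13 CPM in prrx1b-/- members and at 0 in members of both WT plates, against 74.3 to 155 CPM in the other wells. Only 2 of its transcripts were counted in all members together. CA10 (a carbonic anhydrase-like protein), adamtsl7 (an ADAMTS-like matrix protein), LIPG (endothelial lipase) and c3a.1 (complement component 3) had 6, 7, 9 and 11 transcripts in all members, with log2 fold changes of -4.21, -4.21, -3.68 and -3.62. LIPG lost its call in wells of 2000 to 8000 transcripts (-1.67, adjusted p = 0.116, edgeR) and stood at -4.33 without WT plate 2, and CA10 stood at -3.51 without prrx1b-/- plate 1. PTX3 and gcga were at -2.19 and -2.86 in wells of 2000 to 8000 transcripts, and c3a.1 and CA10 at -2.93 and -2.93, all still called. COL11A1, a minor fibrillar collagen chain, was at 0 to 10.01 CPM in members and 75.04 to 146 CPM in other wells.

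The partners of a link protein were examined next, from a list of 11 tested genes of hyaluronan matrix. Of these, 3 rose and 3 fell, and the list's median log2 fold change was 0.06, beside -0.08 over all genes. vcanb, encoding the large hyaluronan-binding proteoglycan versican, was at 307 and 298 CPM in prrx1b-/- members and 377 and 308 CPM in WT members. In other wells it was at 64.6 and 45.7 CPM in prrx1b-/- and 47.8 and 46.0 CPM in WT (2.53, SE 0.19, adjusted p = 4.09e-31, edgeR), and the value was 1.75 in wells of 2000 to 8000 transcripts. A second link protein gene, HAPLN1 (ENSDARG00000068516), which the rule did not use, was at 327 and 329 CPM in prrx1b-/- members and 361 and 410.1 CPM in WT members, against 120.5 and 112 CPM and 96.6 and 111 CPM in the other wells (1.56). Reads shared between such near copies could not be checked in the summed counts. HAS2, a hyaluronan synthase, was higher by 1.19 on the log2 scale (adjusted p = 0.0257) with 35 transcripts in 23 members. Under both depth settings 2 genes of the list rose and 2 fell.

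The lower genes of the list included enzymes and binding proteins of hyaluronan. CEMIP, a protein that binds hyaluronan and promotes its breakdown, was at 30.0 and 35.9 CPM in prrx1b-/- members and 7.85 and 9.32 CPM in WT members, against 197 and 202 CPM in other prrx1b-/- wells and 281 and 166 CPM in other WT wells (-3.21). TNFAIP6, which moves heavy chains onto hyaluronan, was at 219.7 to 344 CPM in members and 417 to 676 CPM in other wells (-1.13). HAS1 was also lower (-2.01, adjusted p = 0.0309), with 4 transcripts in members. ITIH5, a member of the family of heavy chains that bind hyaluronan, was among the 15 named higher genes, at 195 to 282 CPM in members and 38.0 to 41.7 CPM in other wells (2.37).

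Elastic fibre and calcification genes split as well, with 5 higher and 6 lower of 19 (median -0.15). mfap5, a microfibril protein, was at 2175 and 1571 CPM in prrx1b-/- members and 1648 and 2153 CPM in WT members, against 475 and 479.6 CPM and 550.1 and 482 CPM in the other wells (1.80, SE 0.11, adjusted p = 3.42e-46, edgeR). DPT, or dermatopontin, was at 1264 and 1150 CPM in prrx1b-/- members and 1279 and 941 CPM in WT members, against 474 and 403 CPM and 338 and 338 CPM (1.46). The elastin-interface gene EMILIN2 rose by 1.64, the fibulin gene FBLN2 by 1.33 and emilin1b by 1.01. The lower genes were ANKH, a pyrophosphate exporter that restrains calcification (-4.46), emilin1a (-3.90), the crosslinking enzyme gene LOX (-2.61), EFEMP2, or fibulin 4 (-2.33), elnb, encoding elastin (-2.13), and mfap2 (-1.10). emilin1a and ANKH (ENSDARG00000071724) had 1 transcript each in the members. In wells of 2000 to 8000 transcripts the counts were 5 higher and 2 lower of 15.

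Of 6 small leucine-rich proteoglycans, which bind collagen fibrils, 2 rose and 2 fell. DCN, or decorin, was at 5500 and 4796 CPM in prrx1b-/- members and 4707 and 6263 CPM in WT members, against 2488 to 2748 CPM in other wells (0.89). PRELP rose by 1.30. LUM, or lumican, was at 23.5 to 83.9 CPM in members and 141 to 254 CPM in other wells (-1.89), and ASPN, or asporin, had 1 transcript in all members (-5.68). Of 3 tested in wells of 2000 to 8000 transcripts, 1 rose and 1 fell.

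Basement membrane genes were higher in 5 of 10 cases and lower in none (median 0.58). COL4A1, a chain of network-forming type IV collagen, was at 2488 and 2578 CPM in prrx1b-/- members and 2660 and 2488 CPM in WT members, against 1065 and 1152 CPM and 1262 and 1034 CPM in the other wells (1.07). The laminin chain genes LAMA5, LAMB1 and lamc1 rose by 1.38, 0.94 and 0.59, and NID1, or nidogen, by 0.63. The list passed in 3 of 10 genes after thinning and in 0 of 10 in wells of 2000 to 8000 transcripts, where its median was 0.31. Of 11 other collagens 4 rose, among them COL6A3 (0.86), and 2 fell, both copies of COL12A1. Of these 11, 1 rose and 2 fell in wells of 2000 to 8000 transcripts.

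Summed over the wells of a plate, fibrillar collagens were near the same level in both classes. Of 8 tested, 0 rose and 2 fell, namely COL11A1 (-4.25) and col11a1b (-2.96). col1a1a was at 7971 and 7738 CPM in prrx1b-/- members and 5201 and 8797 CPM in WT members, against 6989 and 7106 CPM and 5050 and 7797 CPM in the other wells (0.02, SE 0.08, adjusted p = 0.936, edgeR). COL1A1 (0.08), COL1A2 (-0.18) and COL5A1 (0.07) were not called either. After thinning 2 of 6 rose and 1 fell, and in wells of 2000 to 8000 transcripts 1 of 6 rose and 0 fell. In single wells, by contrast, the median share of the summed list was higher in members on every plate. Per 10000 transcripts it was 259 and 254 in prrx1b-/- members and 169 and 221 in WT members. The other wells had 185 and 179 on the prrx1b-/- plates and 132 and 170 on the WT plates. Plate sums give deep wells more weight, and the medians were not tested.

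Marker lists were used to check the label of fibroblast-like cells. All 145 members held transcripts of col1a1a, COL1A1, COL1A2 and COL5A1, as did nearly all other wells. Of 13 fibroblast markers, 2 rose, 1 copy each of FN1, or fibronectin (0.31), and FSTL1, or follistatin-like 1 (0.30). The 5 that fell were both copies of COL12A1 (-1.98 and -2.11), the other copy of FN1 (-1.70), DKK3 (-2.01) and PTX3 (-4.43). POSTN, or periostin, a matrix protein of activated fibroblasts, was in 3 members and at 0 to 9.32 CPM, against 7.15 to 24.8 CPM in other wells (-1.87, adjusted p = 0.0665). The list's median was -0.78, and in wells of 2000 to 8000 transcripts 1 of 11 rose and 3 fell. The members thus carried collagen transcripts, as did the other sorted wells. In plate sums the remaining fibroblast markers were mostly at or below the level of the other wells. In single wells the list's median share was higher in members on every plate. It was 525 and 533 per 10000 transcripts in prrx1b-/- members and 341 and 459 in WT members, against 438 and 463 and 318 and 378 in the other wells. Nearly all other wells held these collagens too, so the name fibroblast-like does not set the members apart.

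Markers of the remote epicardium were higher in 4 of 4 genes, the transcription factor genes TCF21 (1.16) and TBX18 (0.60) with HSPH1 (1.07) and RTCA (0.99). HSPH1 was not higher on every plate. It was at 767 and 601 CPM in prrx1b-/- members and 235 and 270 CPM in WT members. In the other wells it was at 175 and 249 CPM in prrx1b-/- and 276 and 136 CPM in WT. TCF21 was at 237 and 118 CPM in prrx1b-/- members and 196 and 326 CPM in WT members, against 85.9 and 66.2 CPM and 93.7 and 109 CPM in the other wells. These calls were all lost in wells of 2000 to 8000 transcripts and after thinning, where 0 of 4 passed with medians of 0.19 and 0.55. Markers of the injury-activated epicardium were lower in 4 of 5 genes. ALDH1A2, which makes retinoic acid, was at 76.7 and 149 CPM in prrx1b-/- members and 54.9 and 112 CPM in WT members, against 679.7 and 774 CPM and 602 and 596 CPM in the other wells (-2.90). adh8a, a dehydrogenase gene, and cldc1 fell by 3.06 and 2.94, and wt1b, a transcription factor gene of the active epicardium, fell by 0.76. WT1 was at -0.22 (adjusted p = 0.706). With both depth settings 3 of the 5 genes still passed, all lower.

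Of 9 pericyte and smooth muscle markers 4 fell, the contractile genes MYH11 (-3.53), acta2 (-2.92) and 1 copy of TAGLN (-1.55) and the signalling regulator RGS5 (-2.33). The other copy of TAGLN rose (0.91), at 1191 to 1668 CPM in members and 541 to 785 CPM in other wells. Endothelial, cardiomyocyte and erythrocyte markers were low. Of the endothelial list cdh5, vwf and plvapb were at 0 in members, and the list summed to 62.3 to 142 CPM there and 86.9 to 93.4 CPM in other wells. The cardiomyocyte list summed to 5.09 to 72.9 CPM in members and 15.02 to 159 CPM in other wells.

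**Figure D3:**
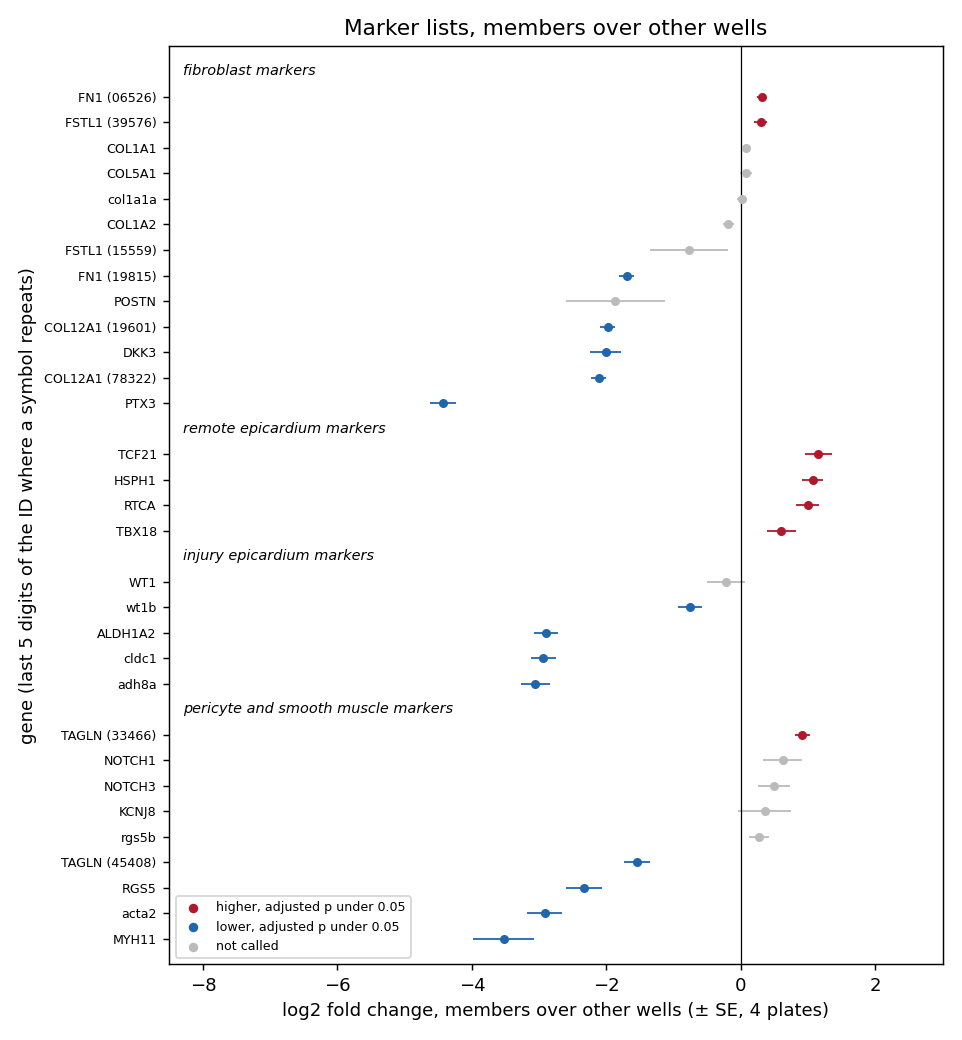
Log2 fold change of members over other wells (± SE from the edgeR fit over 4 plates) for each tested gene of the fibroblast, remote epicardium, injury epicardium and pericyte lists. Fibroblast genes run from 0.31 to -4.43, remote epicardium genes lie above 0 and injury epicardium genes below it.

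Secreted signals and their antagonists moved in small numbers. In the TGF-beta and BMP list 2 of 24 genes rose and 6 fell. The ligand genes BMP4 (2.11) and INHBB (1.38) were higher, with 37 and 80 transcripts in members. The ligand genes TGFB3 (-1.64), tgfb1a (-1.18), tgfb1b (-1.11) and INHBA (-0.83) and the target genes ID1 (-1.74) and ID2 (-1.57) were lower. TGFB3 was at 56.7 and 71.9 CPM in prrx1b-/- members and 62.8 and 103 CPM in WT members, against 149 to 228 CPM in other wells. The Wnt antagonist genes SFRP5 (1.99) and frzb (1.21) were higher and DKK3 lower, of 6 tested. On the prrx1b-/- plates frzb was at 1064 and 1474 CPM in members and 259 and 337 CPM in other wells. On the WT plates its levels were close, at 290 and 233 CPM in members and 273 and 222 CPM in other wells. Of 15 matricellular genes, SPON2 (3.09), THBS3 (1.42) and SPON1 (0.65) rose, and TNC, or tenascin C (-1.21), THBS1 (-0.99) and CCN2 (-0.97) fell. THBS3 was at 1314 to 1623 CPM in members and 393 to 587 CPM in other wells. Of 20 proteases and inhibitors 5 rose and 5 fell, with 1 copy of HTRA1 among the higher genes (1.34, at 2237 to 3168 CPM in members and 879 to 1244 CPM in other wells). In wells of 2000 to 8000 transcripts the TGF-beta and BMP list had 0 higher and 2 lower of 18, and the matricellular list 1 and 1 of 11. The Wnt list had 0 and 1 of 4, and the protease list 1 and 2 of 17. Over all 4761 genes tested there, 144 were higher and 176 lower.

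Of 23 connective tissue transcription factor genes 4 rose and 4 fell. foxc1b (1.19), zeb2a (1.02), ZEB1 (1.01) and TCF12 (0.79) were higher, and klf2b (-3.82), snai2 (-1.86), snai1a (-0.82) and twist1a (-0.81) lower. snai2, a regulator of epithelial-mesenchymal transition, was at 86.3 to 149 CPM in members and 312 to 469 CPM in other wells. The gene names used here give the symbol PRRX1 to 2 genes and do not tell prrx1a from prrx1b. One of them (ENSDARG00000033971) was at 83.4 and 82.2 CPM in prrx1b-/- members and 78.5 and 140 CPM in WT members, against 98.3 and 141 CPM and 119 and 121 CPM in the other wells (-0.46, adjusted p = 0.18). The other (ENSDARG00000042027) had 0 transcripts in members, but it was near absent elsewhere too, at 1.19 to 4.32 CPM and in 1.99% of the other wells. It was too sparse to test. In wells of 2000 to 8000 transcripts the transcription factor list had 1 gene higher and 1 lower of 18. Of 5 cell cycle genes tested with edgeR, 0 were called in either direction.

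Genes of the immediate early response, which cells switch on within minutes of a stimulus including tissue dissociation, were higher in 14 of 18 and lower in none (median 0.98). FOS was at 7057 and 5792 CPM in prrx1b-/- members and 10991 and 6738 CPM in WT members, against 1694 and 1733 CPM and 3051 and 2391 CPM in the other wells (1.67). egr2a (2.09), SOCS3 (1.24) and JUN (1.19) were also higher. The list summed to 26304 to 34465 CPM in members and 12781 to 16229 CPM in other wells. It remained in that direction with 8 of 18 called in wells of 2000 to 8000 transcripts and 10 of 18 after thinning. Of 16 heat shock genes 7 rose and 3 fell, with hsp70l at 7214 and 5437 CPM in prrx1b-/- members and 4770 and 3616 CPM in WT members, against 1664 and 1907 CPM and 2420 and 1261 CPM (1.42). Of 13 heat shock genes tested in wells of 2000 to 8000 transcripts, 3 rose and 0 fell. HSPH1, counted above among remote epicardium markers, is itself a heat shock gene. The part of these stress genes in the other differences was not tested.

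Single wells were then examined for both lists. The median share of the immediate early list per 10000 transcripts was 226 and 199.7 in prrx1b-/- members and 328 and 235 in WT members, against 124 and 124 in other prrx1b-/- wells and 164 and 128 in other WT wells. Of the members, 43 of 52 and 29 of 37 on prrx1b-/- plates and 21 of 28 and 21 of 28 on WT plates lay above the median of the other wells. The median share of the heat shock list was 228 and 227 in prrx1b-/- members and 162 and 187 in WT members, against 134 and 153 in other prrx1b-/- wells and 148 and 133 in other WT wells. On WT plate 1 the 2 medians were close. The members above the median of the other wells were 41 of 52 and 24 of 37 on prrx1b-/- plates and 15 of 28 and 19 of 28 on WT plates. The 2 lists were related over wells, with a Spearman rho of 0.47 in members and 0.51 in the other wells. Within the members, rho with hapln1a was -0.10 for the immediate early list and -0.17 for the heat shock list, and rho between hapln1a and depth was 0.08. These are given as a description, since choosing the members on hapln1a narrowed its range.

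Members varied more in some genes than in others. Per 10000 transcripts, cd34 ran from 4.31 to 160 in the 145 members with a median of 43.6, whereas the other wells had a median of 5.56 and 6.42% of them lay above the members' median. The median was 15.5 in members and 3.39 in other wells for mfap5, 9.88 and 2.10 for DPT, 47.5 and 22.2 for DCN, and 23.2 and 10.3 for COL4A1. For col1a1a, near equal in plate sums, it was 64.6 and 45.3, and for COL12A1 (ENSDARG00000078322) 3.24 and 6.41. FOS ranged from 0 to 534 and hsp70l from 0 to 487 among the members. frzb had a median of 0, since it was present in 67 members, and reached 150.0 in the highest. The 14 members with 5 or more mgp transcripts had 3861 CPM of cd34, 584 CPM of fgl2b and 2646 CPM of mfap5, and the 96 members without mgp had 4810, 515 and 1842 CPM of the same genes, so both kinds carried the leading genes.

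The levels, pooled over the 4 plates, changed in steps outside the members too. cd34 was at 5526 CPM in wells ranked in the top 5% by the pair, 4230 CPM at 5 to 10%, 2852 CPM at 10 to 20%, 1350 CPM at 20 to 50% and 491 CPM in the remaining wells. mfap5 ran through 2054, 1752, 1583, 789 and 267 CPM over the same ranks, fgl2b through 621, 457, 356, 98.9 and 18.8 CPM, and vcanb through 338, 291, 197 and 72.9 to 28.3 CPM. COL12A1 (ENSDARG00000078322) took the reverse course, at 438, 506, 861, 1535 and 2225 CPM, and so did PTX3 (43.6, 35.3, 124, 488 and 1021 CPM) and ALDH1A2 (92.6, 101, 199, 509 and 781 CPM). adh8a differed from these. It was at 29.9 and 70.6 CPM in the members and at 391, 456 and 390 CPM beyond them, with the plates spread from 80.7 to 657 CPM at ranks of 10 to 20%.

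**Figure D4:**
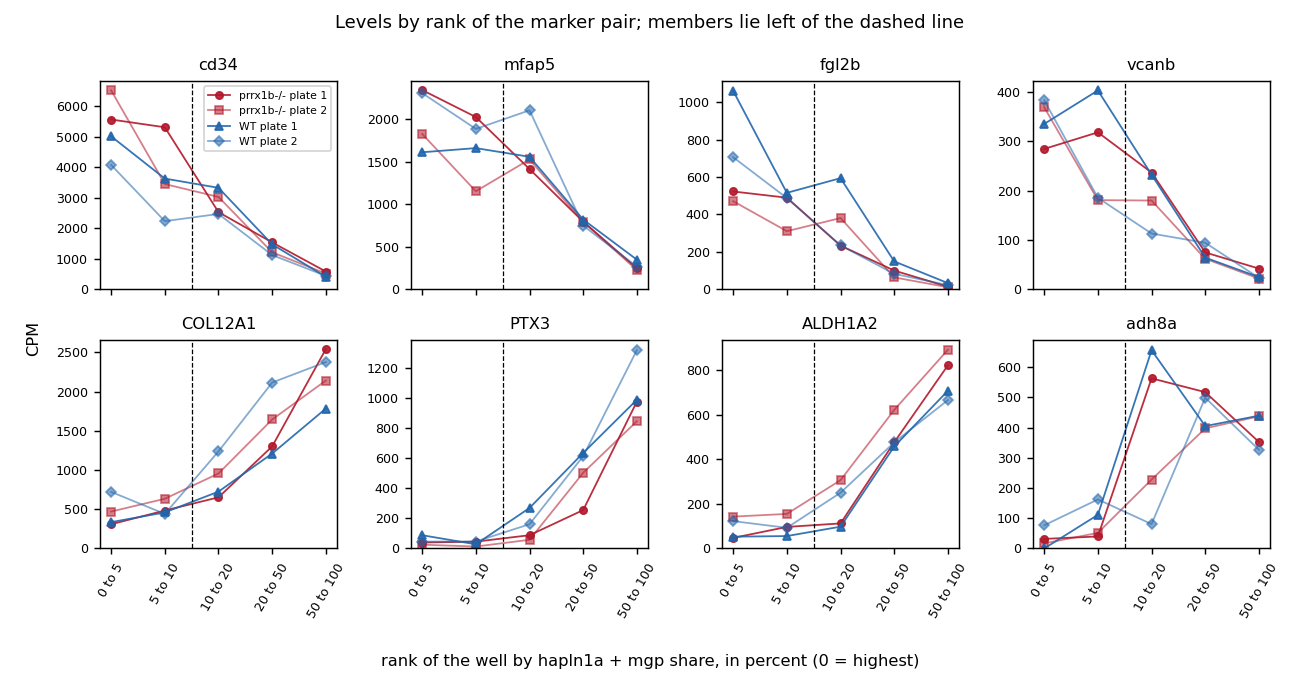
CPM of 8 genes in wells grouped by rank of the pair's share (0 is the highest), with a line for each plate and the members left of the dashed line. cd34, mfap5, fgl2b and vcanb are higher in the top 5% than in the lowest ranks on every plate, and COL12A1, PTX3 and ALDH1A2 lower, though single plates do not change steadily from rank to rank.

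Members were then set against wells chosen by 2 other matrix genes, col11a1a and postnb. Wells with a transcript of col11a1a, the gene listed as COL11A1 above, numbered 235, of which 5 were members (3.45% of members and 2.13% of these wells). Wells with a transcript of postnb, listed as POSTN above, numbered 63, of which 3 were members (2.07% of members and 4.76% of these wells). It was found in 4.59% of the other wells, and after thinning in 0% of members and 0.76% of the other wells. The name table gives POSTN to 2 IDs, of which ENSDARG00000043806 is the one counted here, and does not say which is postnb. Wells in both classes were left out of these comparisons, and the choosing genes are given with no test. A single transcript of a sparse gene is found more often in deeper wells, and members were shallower than the other wells. Depth was not matched here, and its part in these comparisons was not tested.

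Against col11a1a wells, 838 of 5076 genes (16.5%) were higher in the members and 871 (17.2%) lower. fgl2b was at 519 and 426 CPM in prrx1b-/- members and 814 and 624 CPM in WT members, against 1.47 and 8.81 CPM and 18.3 and 3.45 CPM in col11a1a wells (6.29, SE 0.31, adjusted p = 1.51e-12, edgeR). tns2b (4.38), SOSTDC1 (4.34) and GRIA1 (4.08) followed. The matrix genes ASPN (-6.46), PTX3 (-5.19) and col11a1b (-4.07) were lower. The uncharacterised gene si:ch211-198c19.3 was at 118 and 224 CPM in prrx1b-/- members and 117 and 224 CPM in WT members, against 2401 and 2192 CPM and 2052 and 2081 CPM in col11a1a wells (-3.78).

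Against postnb wells, 338 of 2169 genes (15.6%) were higher and 315 (14.5%) lower. fgl2b (5.33), MDK (4.70), cd74a (4.01) and the heat shock gene HSPA2 (3.84) led the higher genes. FOS was at 7262 and 5792 CPM in prrx1b-/- members and 11304 and 6706 CPM in WT members, against 868 and 314 CPM and 1882 and 493 CPM in postnb wells (3.28). ASPN (-6.41), COL11A1 (-5.12), crlf1a (-4.83), a cytokine receptor-like gene, and CILP2 (-4.44), a cartilage matrix gene, were lower. The postnb wells compared here numbered 22 and 21 on the prrx1b-/- plates and only 7 and 10 on the WT plates. They sum to few transcripts per plate, which limits the genes tested, and the values on the WT plates rest on few wells.

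The fibrillar collagens, near equal in plate sums between members and all other wells, were lower in members in 7 of 7 tested genes against both classes. Fibroblast markers counted 1 higher and 9 lower of 12 against col11a1a wells and 0 higher and 8 lower of 10 against postnb wells. Immediate early genes counted 17 of 18 and 16 of 18 higher, and remote epicardium markers 4 of 4 and 2 of 4 higher. The same members enter both comparisons, so these counts are not independent. The compared wells were chosen by a fibrillar collagen gene and by a fibroblast marker. The counts of collagens and fibroblast markers may follow in part from that choice, which was not tested. Depth was not matched in either, and the remote epicardium calls against all other wells were lost under both depth settings.

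Within the members, prrx1b-/- and WT wells were compared over all genes that passed the filter. The p-values here and for the difference of genotype effects rest on the spread between plates of pooled hearts, which may not be that between fish. Genotype cannot be told apart from the pool of hearts or its sort. Of 2348 genes, 14 (0.596%) were called, 4 higher and 10 lower in prrx1b-/-, and 306 had an unadjusted p under 0.05. frzb, a secreted Wnt antagonist, was at 1064 and 1474 CPM in prrx1b-/- members and 290.3 and 233 CPM in WT members (2.23, SE 0.25, adjusted p = 0.00263, edgeR). The genotypes did not overlap, and the wells that held it were 24 of 52 and 19 of 37 in prrx1b-/- and 13 of 28 and 11 of 28 in WT. Without the highest well of each plate it was at 552 and 1260 CPM in prrx1b-/- and 199.5 and 196 CPM in WT. In the other wells frzb was at 259 and 337 CPM in prrx1b-/- and 273 and 222 CPM in WT. The call was lost after thinning (1.77, adjusted p = 0.0619).

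HSPH1 was at 767 and 601 CPM in prrx1b-/- members and 235 and 270.3 CPM in WT members (1.42, SE 0.25, adjusted p = 0.0452, edgeR), a call lost after thinning (adjusted p = 0.0869). HDLBP, or vigilin, an RNA-binding protein, was at 1441 and 1566 CPM in prrx1b-/- members and 785 and 699 CPM in WT members (0.98). It lost its call after thinning (adjusted p = 0.0762), in wells of 2000 to 8000 transcripts (0.106) and without prrx1b-/- plate 2 (0.0704). The fourth higher gene, ENSDARG00000004665, has no symbol here (1.09) and was not called in wells of 2000 to 8000 transcripts (adjusted p = 0.106) or without prrx1b-/- plate 2 (0.147).

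CXCL12, a chemokine, was at 217 and 128 CPM in prrx1b-/- members and 541 and 466 CPM in WT members (-1.54, SE 0.29, adjusted p = 0.0495, edgeR). It was not called in DESeq2 (adjusted p = 0.178), after thinning (0.0762) or without prrx1b-/- plate 2 (0.0933). In the other wells it was at 744 and 776 CPM in prrx1b-/- and 855 and 854 CPM in WT. ifi27.2, an interferon-inducible gene, was at 20.0 and 5.13 CPM in prrx1b-/- members and 337 and 671 CPM in WT members (-5.12), in 4 and 1 wells against 11 and 9. Without prrx1b-/- plate 1 it stood at -6.40 and after thinning at -6.76. It was also at 19.0 and 14.4 CPM in other prrx1b-/- wells and 183 and 210.0 CPM in other WT wells. si:dkey-238c7.13 was lower in prrx1b-/- members (-6.58), though not called without WT plate 1 (-4.82, adjusted p = 0.0608), and in the other wells it was at 53.9 and 47.8 CPM in prrx1b-/- and 665 and 1054 CPM in WT. cd74b was lower too (-3.0, with -4.68 without prrx1b-/- plate 1 and -2.36 without prrx1b-/- plate 2), at 8.65 and 10.4 CPM in other prrx1b-/- wells and 61.8 and 94.1 CPM in other WT wells. The ribosomal gene RPS12 fell by 0.93, beside a lower ribosomal share on both prrx1b-/- plates in members (7.48 and 7.46%, against 9.74 and 10.01% in WT) and in other wells. RPS12 was not called in wells of 2000 to 8000 transcripts (adjusted p = 0.109), in DESeq2 (0.102), without prrx1b-/- plate 1 (0.0852) or without prrx1b-/- plate 2 (0.147). MYOC was at 10.01 and 15.4 CPM in prrx1b-/- members and 94.1 and 475 CPM in WT members (-4.46), and was not called without WT plate 2 (-2.89, adjusted p = 0.314). MYOC was found in 2 and 2 prrx1b-/- members and in 2 and 5 WT members. On WT plate 1, 1 well held 11.01 of its 12.01 transcripts, and on WT plate 2, 1 well held 35.15 of 51.16. Without these wells MYOC was at 8.05 and 156 CPM in WT members, so its value rests on few wells. The other 4 called genes have no symbol here and were lower by 1.54 to 2.51. ENSDARG00000085168, the smallest of these, was not called in DESeq2, in wells of 2000 to 8000 transcripts, after thinning or without prrx1b-/- plate 2, and DESeq2 did not call ENSDARG00000082180 and ENSDARG00000096145.

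**Figure D5:**
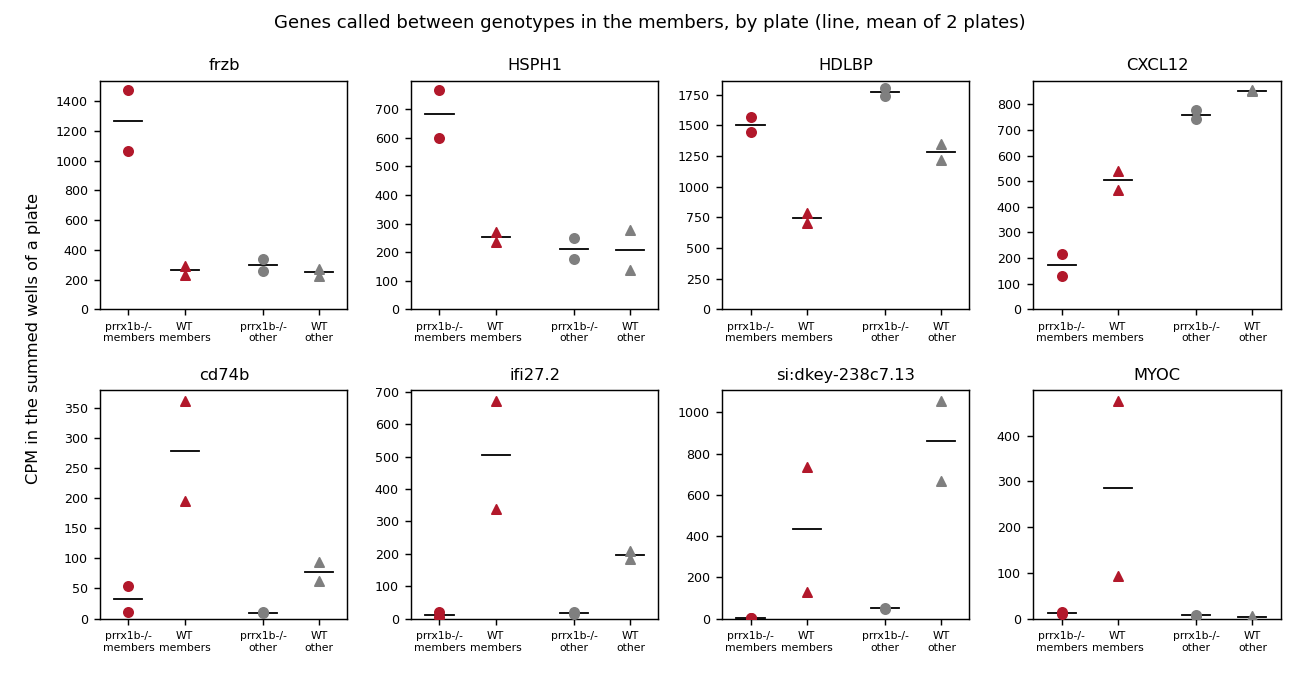
CPM per plate of 8 genes called between genotypes within the members, in members (red) and in the other wells (grey), with circles for prrx1b-/-, triangles for WT and a line at the mean of 2 plates. frzb and HSPH1 are high only in the 2 prrx1b-/- member sums, whereas ifi27.2, cd74b and si:dkey-238c7.13 lie lower in prrx1b-/- than in WT in both classes.

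The difference between the genotype effect in members and that in the other wells was tested over 10085 genes, of which 14 (0.139%) were called, 7 in each direction. Its median over all genes was 0.13 on the log2 scale with the main scaling and 0.04 with DESeq2's size factors, so values are relative to that shift. frzb was called (2.11, SE 0.27, adjusted p = 1.11e-10, edgeR), as were HSPH1 (1.49) and CXCL12 (-1.24). CLU, or clusterin, a secreted chaperone, was close between genotypes in members and apart in the other wells. It was at 434 and 483 CPM in prrx1b-/- members and 509.9 and 485 CPM in WT members, against 5445 and 4830 CPM in other prrx1b-/- wells and 1876 and 2327 CPM in other WT wells (-1.32, adjusted p = 9.1e-05). None of the 14 was called in wells of 2000 to 8000 transcripts or after thinning, where frzb stood at 1.16 and 1.13.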

How the data were processed

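mCherry+ cells were sequenced by SORT-seq (1 cell per well, 384 wells per plate), a CEL-Seq2 protocol that tags the 3' end of each molecule with a barcode. The authors mapped reads to Zv9 with BWA 0.6.2, counted molecular barcodes per gene and well, corrected them for barcode collisions and deposited the resulting expected counts, which are not scaled for depth. Barcode correction keeps amplification out of the counts, and 3' tags give no isoform.

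Wells under 1000 transcripts of Ensembl genes were dropped, which left 1453 of 1536, with member depths of 1094 to 14511. Each well was loaded with 1 sorted cell, so no doublet caller was run, and the 384 well barcodes are the same on all plates. Members and gene lists were chosen with earlier results of these data known. Expected counts were summed per plate and class, rounded, and tested with edgeR 4.0.16 in R 4.3.3 (filterByExpr, TMM, quasi-likelihood, Benjamini-Hochberg over all genes). Plate was a block where both classes of a plate were compared. hapln1a and mgp were left out of totals and tests. Named genes were, at adjusted p under 0.05, a symbol, 100 CPM in a class and 1 sign on 4 plates, the 15 highest and 10 lowest log2 fold changes (10 each against col11a1a and postnb wells), every call between genotypes with a symbol, and up to 4 genes per list; single values used exact permutation. Genes outside these rules were named after their values were seen. Symbols were found for 16194 of 20905 genes with a count. Alternatives were DESeq2 1.42.0, its size factors in edgeR, no filter, other limits on the share, a replicate block, leaving out each plate and, chosen after seeing the data, thinning and a depth range. The scripts were tested on simulated data. Python 3.11.15 with numpy 2.4.6, scipy 1.17.1 and pandas 2.3.3 was used. Genome sequence was not used here. Some called genes are not reported here.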

Additional observations from a re-analysis of the deposited data

Results flagged for a closer look

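The difference between the genotype effect in hapln1a-rich wells and that in the other wells was tested directly, and all but 1 of the 14 genes called there are listed as log2 differences, members minus other wells, from the edgeR fit. Higher values were found for frzb (2.11), HSPH1 (1.49), DNAJB9 (2.01), txnb (1.19), ENSDARG00000004665 (0.97), zgc:103438 (3.57) and mb (4.47). For zgc:103438 and mb 1 well held 54% and 56% of the members' transcripts. Lower values were found for CLU (-1.32), MYOC (-5.04), c4b (-1.57), CXCL12 (-1.24), tfa (-1.51) and ENSDARG00000041566 (-1.53). The c4b value was -0.21 (adjusted p = 0.955, edgeR) without WT plate 1, where 1 well held 39% of the members' transcripts. None of the 14 was called after thinning or in wells of 2000 to 8000 transcripts, and DESeq2 called 2, frzb and MYOC. The MYOC value rests on few wells. On WT plate 1, 1 well held 11.01 of the members' 12.01 MYOC transcripts, and on WT plate 2, 1 well held 35.15 of 51.16.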

How the results depend on the processing

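For members against the other wells, 1454 of 8494 genes (17.1%) were called. The count was 306 of 2383 (12.8%) after thinning and 320 of 4761 (6.72%) in wells of 2000 to 8000 transcripts. With the top 5% as members it was 873 of 8256 (10.6%). Fewer genes tested or fewer wells entered in each case. Without 1 plate the count was 975 to 1292 (11.3 to 14.4%). For genotype within the members, the 14 calls became 7 with DESeq2's size factors, 8 after thinning, 39 with no filter, 28 with the top 10% taken within each plate and 1 with the top 5%, and 18 to 63 without 1 plate. For the difference of genotype effects, 14 of 10085 genes (0.139%) were called. The count was 2 of 20878 with DESeq2, 0 of 3261 after thinning and 0 of 6032 in wells of 2000 to 8000 transcripts. It was 9 of 10020 (0.0898%) with the top 20% and 5 of 10027 (0.0499%) with the top 5%. The cause of the shifts between tools was not tested. No named gene changed sign past the threshold. The share difference of 4.39 points was 2.34 to 6.44 without 1 plate, and the depth difference -2951 to -2432. Members led by hapln1a could not be set against those led by mgp, since only 3 were. Calls on genes under 10 CPM in a class rest on few transcripts.

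With the replicate block, which pairs plates of the same number across genotypes, 76 of 2348 genes (3.24%) were called within members. The share difference stayed at 4.39 points (exact permutation p = 0.5, the smallest that 2 pairs allow). With 2 pairs, the plates share only a number.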
